A study of Mus musculus with 3 samples.

Results

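Among the 10 genes described here, 7 encode mitogen-activated protein (MAP) kinase phosphatases (Dusp1, Dusp2, Dusp4, Dusp5, Dusp6, Dusp10 and Dusp16). The others are Spry1, Spry2 and Spred1, which restrain signalling from receptors to Ras and ERK. They were taken by gene symbol, and all 10 were found among the 44788 rows of the table. The data were 3 RNA-sequencing libraries of T lymphocytes from spleens of BALB/c females aged 6 to 8 weeks. The cells were isolated with beads against CD90.2, kept in RPMI 1640 with 2% fetal bovine serum, and given LZ-8, a protein known from the fungus Ganoderma lucidum, for 10 h. All 3 libraries carry that one treatment label, so the values are levels in treated cells, and no untreated cells were analysed here. Nothing in the labels ties the replicates to separate mice or cultures, so every SD and p-value measures the spread between these 3 samples alone, and that spread may be technical.

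Signals from the T cell receptor and from cytokine receptors pass through Ras, RAF and MEK to the kinase ERK, and through parallel cascades to the kinases JNK and p38. MAP kinase phosphatases switch these kinases off by removing phosphate from a threonine and a tyrosine of the activation loop, and several of their genes are themselves switched on by ERK, which makes them negative feedback regulators. Sprouty and Spred proteins are membrane-associated inhibitors that act further upstream, Spred proteins by bringing the Ras-inactivating protein neurofibromin to the membrane.

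The libraries held 13239482, 15007652 and 15683820 counts in replicates 1, 2 and 3. A floor of 3 counts corresponded to 0.186 to 0.236 CPM (counts per 1000000 of the library size, after scaling by edgeR's trimmed mean of M-values, TMM). Intervals and floors cover counting error only. The labelled cell type was checked on 10 T cell genes, which summed to 2926 to 3048 CPM per library with no gene below a mean of 133 CPM. Summed markers of B cells came to 0.379% to 0.387% of that sum, of NK cells to 0.514% to 0.559%, and of macrophages and monocytes (5 of 6 genes measured) to 0.186% to 0.212%. Those of neutrophils, erythroid cells and stroma reached at most 0.943, 2.91 and 0.314 CPM. Csf1r, Ltf, Ncr1 and Col3a1, which mark macrophages, neutrophils, NK cells and stroma, had 0 counts in every library. Other genes of the same lists were detected, led by Prf1, the pore-forming protein perforin that cytotoxic T cells also make, at 12.7 CPM in the NK list and Cd68 at 5.57 CPM in the macrophage list. Rows of ribosomal and small non-coding RNA took 6.14%, 2.52% and 1.10% of the counts in replicates 1, 2 and 3, so the libraries differed in RNA composition, with replicate 1 the highest.

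A mean level of 10 CPM or more was reached by 9 of the 10 genes and 100 CPM by 3, while Spry2 was near 1 CPM. Of the 10523 coding genes whose mean reached 1 CPM, 8059 reached 10 CPM and 2268 reached 100 CPM. The median of the 10 was 40.7 CPM, beside 2.89 CPM over the 23131 rows with a count and 34.5 CPM over those coding genes. Summed, the 10 had 745, 697 and 594 CPM in replicates 1, 2 and 3. Per kilobase of exon, the scale on which genes can be compared with each other, the median of the 10 was 13.1 CPM per kb, beside 7.67 CPM per kb over those coding genes. Dusp2, Spry1 and Dusp5 led the set at the 97.8, 91.0 and 90.8 percentiles of the same coding genes, and Spry2 was last at the 8.44 percentile. In a pool of cells, fewer cells of a type and less RNA per cell cannot be told apart.

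**Figure D1:**
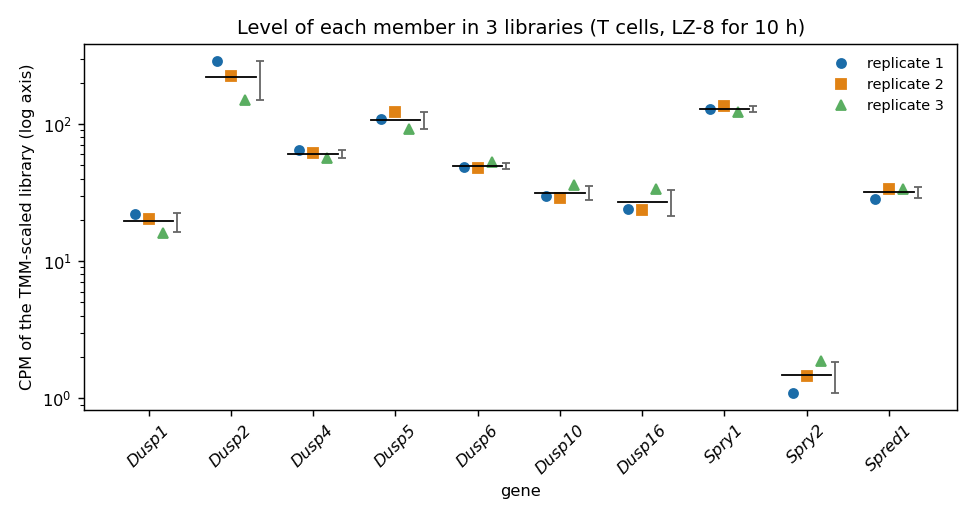
Level of each gene in CPM of the scaled library on a log axis, with a point per library, a line at the mean and a bar of 1 SD to its right (n = 3 libraries). Dusp2, Spry1 and Dusp5 lie at or above 92.1 CPM in every library, Spry2 lies between 1.10 and 1.86 CPM, and Dusp2 has the widest gap between libraries among genes above 10 CPM.

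The nuclear, inducible phosphatases (Dusp1, Dusp2, Dusp4 and Dusp5) contributed most of the phosphatase transcripts per kilobase of exon. Dusp2, also called PAC1 and known from activated lymphocytes, had 289, 223 and 150 CPM in replicates 1, 2 and 3 (mean 221 ± 69.7, SD, n = 3 libraries). Its level was highest in replicate 1 and lowest in replicate 3, a 1.93-fold gap. Dusp5, a nuclear phosphatase selective for ERK, had 108, 122 and 92.1 CPM, with a mean of 107 ± 15.0 CPM and its highest value in replicate 2. Dusp4, a nuclear phosphatase also called MKP-2, had 64.5, 61.2 and 56.2 CPM, so its libraries lay within 1.15-fold of each other. Dusp1, the immediate early gene also called MKP-1, which acts on p38, JNK and ERK, had 22.1, 20.4 and 16.0 CPM and was the least abundant of the 4 on both the CPM and the per-kilobase scale. Dusp2 lies on chromosome 2 from 127336159 to 127338376 and Dusp5 on chromosome 19 from 53529109 to 53542431. Dusp4 lies on chromosome 8 from 34807297 to 34819894 and Dusp1 on chromosome 17 from 26505590 to 26562128 (mm10/GRCm38, gene bounds of GENCODE M21). For Dusp1 and Dusp5 these bounds extend upstream of the RefSeq start used below.

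Sequence upstream of 3 of these genes is shown for its matches to response elements, some of which were also found for Dusp16. Each is the 250 bases before the RefSeq start on the strand of the gene, 5′ to 3′ (RefSeq, GRCm38.p6). Capitals mark matches on either strand to the CArG box (the site of serum response factor), the core TGACG of the cyclic AMP response element (CRE) and the E-box CACGTG.
Dusp5, chr19:53528895-53529144, plus strand: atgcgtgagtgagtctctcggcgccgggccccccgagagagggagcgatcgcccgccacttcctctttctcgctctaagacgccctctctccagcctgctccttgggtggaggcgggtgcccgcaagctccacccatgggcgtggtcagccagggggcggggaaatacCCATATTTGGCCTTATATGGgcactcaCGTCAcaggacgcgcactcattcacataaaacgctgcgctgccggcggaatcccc
Dusp1, chr17:26508473-26508722, minus strand: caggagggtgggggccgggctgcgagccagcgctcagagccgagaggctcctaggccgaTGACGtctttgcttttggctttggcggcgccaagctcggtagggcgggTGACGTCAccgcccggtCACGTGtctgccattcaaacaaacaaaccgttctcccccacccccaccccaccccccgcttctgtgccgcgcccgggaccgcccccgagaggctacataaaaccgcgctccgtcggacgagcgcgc
Dusp2, chr2:127335909-127336158, plus strand: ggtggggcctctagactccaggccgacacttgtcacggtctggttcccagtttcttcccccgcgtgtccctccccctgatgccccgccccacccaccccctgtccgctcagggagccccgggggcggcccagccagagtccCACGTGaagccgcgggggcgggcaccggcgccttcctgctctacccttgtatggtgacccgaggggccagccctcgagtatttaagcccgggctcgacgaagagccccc

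Dusp5 held 2 adjacent CArG boxes, from 82 to 63 bases before its start, and a CRE core from 55 to 51 bases before it. A CArG box occurred in 1.47% of the 32851 RefSeq windows of the same length, and 2 or more occurred in 6 windows (0.0183%). Dusp1 held a full CRE (TGACGTCA, found in 1.55% of windows) from 143 to 136 bases before its start. It also had a separate core from 191 to 187 bases before its start (TGACG occurred in 17.8% of windows, and each full CRE contains it on both strands) and an E-box (6.02% of windows). In Dusp2 the capitals mark 1 E-box, and the window also held a match to the EGR site GCGNGGGCG, which overlaps a GC box and occurred in 4.70% of windows. Dusp16, which is not of the nuclear inducible class, also held a TGACG core, from 70 to 66 bases before its start. Its window held an EGR match too, from 138 to 130 bases before the start. GC boxes (GGGCGG, 32.7% of windows) were found for 7 of the 9 genes with a RefSeq window, and the CCAAT box (CCAAT, 33.8% of windows) for 4 of them. The core of the NFAT site (GGAAA, 55.6% of windows) was found for 5 of 9. No window of the 9 held the AP-1 site TGANTCA (6.75% of windows), the TATA box TATAAA (12.4%) or the ETS site CCGGAA (12.0%). The 9 windows had 56.4% to 70.8% GC, beside a median of 52.4% over all windows. A match is a string of letters and not a measured binding site, and its absence says only that these letters are not in the window.

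Dusp6, the cytoplasmic phosphatase selective for ERK and a standard readout of ERK activity, had the smallest relative spread of the 10, level with Spry1 (coefficients of variation of 4.89% and 4.90%). Dusp6 had 48.4, 48.1 and 52.5 CPM in replicates 1, 2 and 3, a mean of 49.7 ± 2.43 CPM, with the 3 libraries within 1.09-fold of each other. Dusp7, its cytoplasmic relative outside the 10, was at 19.4 ± 1.91 CPM, and Dusp9 had 5, 8 and 6 counts. Dusp6 lies on chromosome 10 from 99263231 to 99267489.

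The phosphatases that act chiefly on JNK and p38 were near the middle of the 10523 coding genes or below it, at the 58.8 percentile for Dusp10 and the 31.0 percentile for Dusp16, per kilobase of exon. Dusp10, also called MKP-5, had 30.1, 28.8 and 36.1 CPM (mean 31.6 ± 3.89 CPM), and Dusp16, also called MKP-7, had 24.2, 23.5 and 33.7 CPM (mean 27.1 ± 5.70 CPM). Both were highest in replicate 3, with the other libraries close together. Dusp8, a relative outside the 10, was at 3.79 ± 0.422 CPM. Dusp10 lies on chromosome 1 from 184013302 to 184075636 and Dusp16 on chromosome 6 from 134715468 to 134792625.

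Summed per kilobase of exon over the 10 typical MAP kinase phosphatases (the 7 above with Dusp7, Dusp8 and Dusp9), the nuclear inducible class made up 82.7 ± 4.62% of transcripts (SD, n = 3 libraries). The cytoplasmic ERK class (Dusp6, Dusp7, Dusp9) made up 10.3 ± 2.39% and the JNK and p38 class (Dusp8, Dusp10, Dusp16) 6.97 ± 2.26%. Dusp2 alone accounted for 57.1%, 49.6% and 42.2% in replicates 1, 2 and 3, and the nuclear class as a whole for 86.4%, 84.3% and 77.5%, so both shares were highest in replicate 1 and lowest in replicate 3. Without division by length the nuclear class stood at 75.0 ± 6.01% and the JNK and p38 class at 11.9 ± 3.55%.

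**Figure D2:**
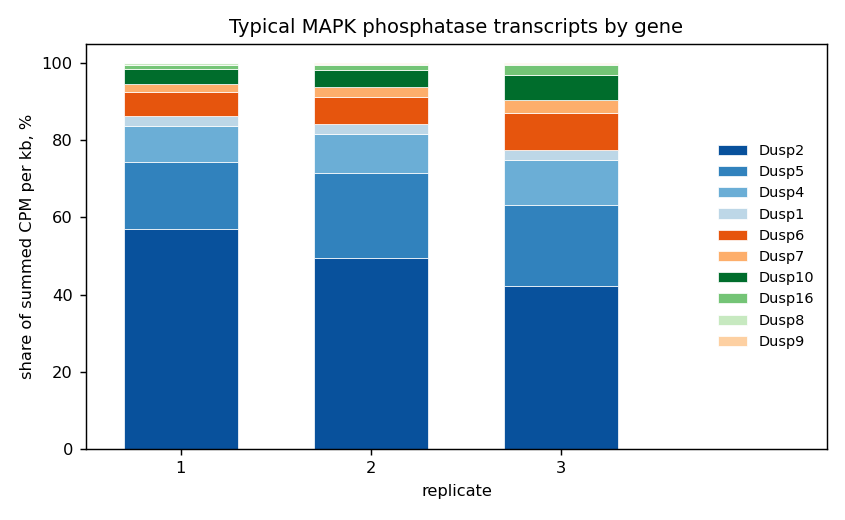
Share of each typical MAP kinase phosphatase in their summed CPM per kb of exon, in percent, with a stacked bar per library (blue, nuclear inducible; orange, cytoplasmic ERK; green, JNK and p38). Dusp2 fills 42.2% to 57.1% of each bar and Dusp5 17.3% to 22.0%.

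Spry1 was the dominant Sprouty gene. It had 129, 135 and 122 CPM in replicates 1, 2 and 3, a mean of 129 ± 6.31 CPM, with all libraries within 1.10-fold of each other. Spry2, a close relative prominent in other tissues, had 14, 22 and 30 counts, or 1.10, 1.45 and 1.86 CPM. The exact 95% Poisson interval of Spry2 ran up to 1.85 CPM for replicate 1 and down to 1.25 CPM for replicate 3, so these overlapped. Spry4 was at 2.39 ± 0.0684 CPM and Spry3 had 0 counts in every library, for which the exact 95% Poisson interval reaches at most 0.290 CPM. Spry1 lies on chromosome 3 from 37639947 to 37644598 and Spry2 on chromosome 14 from 105891947 to 105896819.

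Spred1 had 28.3, 33.4 and 33.5 CPM in replicates 1, 2 and 3, with a mean of 31.7 ± 2.98 CPM and its lowest value in replicate 1. Spred2, its relative outside the 10, was at 44.8 ± 2.73 CPM, and Spred3 was at 2.34 ± 0.169 CPM. Per kilobase of exon, Spry1 made up 73.5 ± 0.607% of the summed Sprouty and Spred transcripts with an exonic length (all but Spry3). Spred2 made up 16.1 ± 0.598%, Spred1 7.76 ± 0.809% and Spry2 1.17 ± 0.338%. Spred1 lies on chromosome 2 from 117121374 to 117182279.

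**Figure D3:**
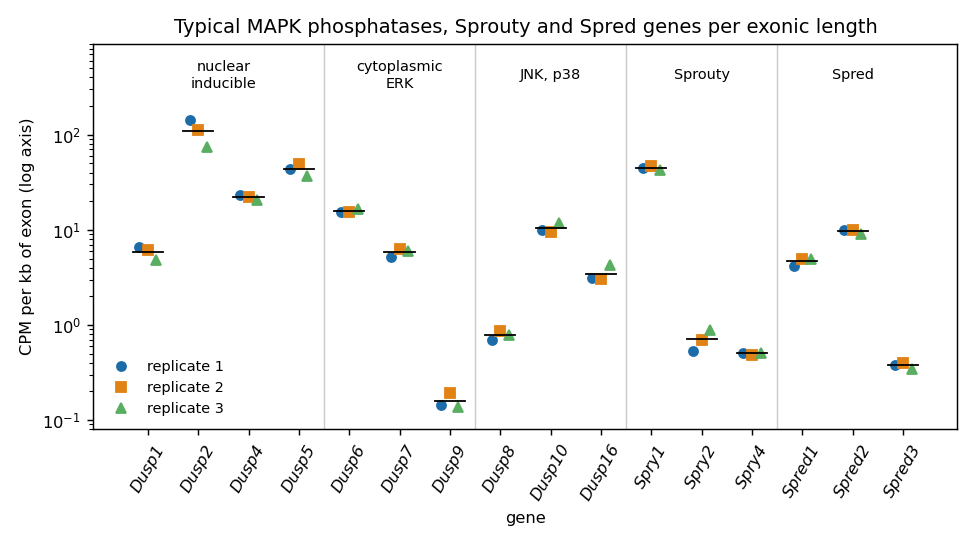
CPM per kb of exon on a log axis for the typical MAP kinase phosphatases and the Sprouty and Spred genes, grouped by class, with a point per library and a line at the mean; Spry3, with 0 counts, is not drawn. Dusp2 is highest at a mean of 110.1 CPM per kb, Spry1 and Dusp5 follow at 44.3 and 43.4, and Dusp9 is lowest at 0.158.

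The order of the 10 genes was set on CPM per kb of exon, as Dusp2 (110.1 ± 34.8), Spry1 (44.3 ± 2.17), Dusp5 (43.4 ± 6.07), Dusp4 (22.1 ± 1.52), Dusp6 (15.9 ± 0.775), Dusp10 (10.4 ± 1.28), Dusp1 (5.90 ± 0.942), Spred1 (4.68 ± 0.439), Dusp16 (3.48 ± 0.732) and Spry2 (0.704 ± 0.182). Of 45 pairs, 43 had the same order in all 3 libraries. The neighbours Spry1 and Dusp5 did not differ beyond their spread (log2 ratio 0.04 ± 0.13), nor did Dusp1 and Spred1 (0.33 ± 0.35). The other 7 neighbouring pairs kept their order in every library, with a mean log2 ratio above its SD. Per kilobase of the longest transcript, in place of all exons, Dusp16 moved above Spred1, and these 2 then did not differ beyond their spread (-0.00427 ± 0.258).

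Within each library 7 ratios were taken, on counts per kilobase of exon. Dusp1 was 18.2-fold lower than Dusp2, with log2 ratios of -4.43, -4.17 and -3.95 in replicates 1, 2 and 3 and a mean of -4.18 ± 0.24. The ratio of Spry1 to Spry2 was 62.8-fold, at 5.97 ± 0.41 on the log2 scale. Spred1 was 9.50-fold lower than Spry1 (-3.25 ± 0.16), and Dusp2 was 2.40-fold higher than Spry1 (1.26 ± 0.43). Within the phosphatases, Dusp4 was 1.95-fold lower than Dusp5 (-0.97 ± 0.16), Dusp6 was 2.72-fold lower than Dusp5 (-1.44 ± 0.27), and Dusp10 was 3.02-fold higher than Dusp16 (1.59 ± 0.12). Each of the 7 had 1 sign in all libraries and exceeded its SD. A two-sided exact sign-flip test over 3 libraries cannot go below 0.25, and all 7 stood at 0.25, also after Benjamini-Hochberg adjustment. The ratio of Dusp10 to Dusp16 rested partly on length, since it was 1.10 ± 0.12 per kilobase of the longest transcript and 0.23 ± 0.12 without length. The other log2 ratios also changed without length. Dusp1 to Dusp2 was then -3.46 ± 0.24, Spred1 to Spry1 -2.02 ± 0.16 and Dusp2 to Spry1 0.73 ± 0.43. Dusp6 to Dusp5 was -1.10 ± 0.27, Dusp4 to Dusp5 -0.82 ± 0.16 and Spry1 to Spry2 6.45 ± 0.41.

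Differences between the replicate libraries were tested for every gene with a chi-square test of the counts against the scaled library sizes. This compares libraries and not conditions. With Benjamini-Hochberg adjustment over 15392 genes and a threshold of 0.05, 7 of the 10 genes were called, beside 42.8% of all genes tested and 58.5% of genes whose mean reached 10 CPM. The median coefficient of variation of the 9 genes at 10 CPM or more was 12.3%, beside 8.67% over the 9204 such genes in the table. Dusp2 had the strongest call of the 10 (adjusted p = 1.61e-139) and Dusp5 followed (5.63e-14). Dusp16 (7.88e-08), Dusp1 (0.00201), Dusp10 (0.0022), Spry1 (0.0212) and Dusp4 (0.0384) also passed this chi-square test. Dusp6 (0.258), Spry2 (0.362) and Spred1 (0.0528) did not pass. The test allows for counting error only, so a gene with more counts is called at a smaller spread. Spry1 and Dusp6 had coefficients of variation of 4.90% and 4.89%, where counting error alone gives 2.30% and 3.70%. For Spry2 these were 25.8% and 21.3%. A call is therefore no ranking of the genes by spread. Dusp2 alone was both called and at least 1.5-fold apart between its highest and lowest library, beside 13.8% of all genes tested. Without replicate 3 only 2 of the 10, Dusp2 and Dusp5, were called, beside 22.8% of genes tested in the same setting.

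The called genes did not move one way between libraries. Replicate 1 was highest for Dusp1, Dusp2 and Dusp4 (17.9% of all genes tested were called with replicate 1 highest), replicate 2 for Dusp5 and Spry1 (5.76%), and replicate 3 for Dusp10 and Dusp16 (19.1%). The direction between replicates 1 and 3 split by base composition. The 5 genes higher in replicate 1 (Dusp1, Dusp2, Dusp4, Dusp5 and Spry1) had longest transcripts of 54.0% to 59.2% GC. The 5 higher in replicate 3 (Dusp6, Dusp10, Dusp16, Spry2 and Spred1) had 41.2% to 49.0%. Between replicates 1 and 3 alone, the chi-square test called 41.7% of genes tested. It did not call Dusp6, Spry1 or Spry2 (adjusted p = 0.204, 0.210 and 0.183), whose direction was thus not beyond counting error. Over 8059 coding genes at 10 CPM or more, 55.1% of those above 50% GC and 26.5% of the rest were higher in replicate 1 than in replicate 3. The median log2 ratio of replicate 1 to replicate 3 was 0.12 in the 2018 of these genes with the least exonic sequence and -0.16 in the 2015 with the most. A trend fitted to length and GC content predicted a log2 ratio of 0.19 for Dusp2, where 0.95 was measured, and -0.26 for Spred1, where -0.24 was measured. For the others, predicted and measured values were 0.06 and 0.46 (Dusp1), 0.10 and 0.20 (Dusp4), 0.12 and 0.23 (Dusp5), and 0.09 and 0.08 (Spry1). They were -0.02 and -0.12 (Dusp6), -0.03 and -0.26 (Dusp10), -0.13 and -0.48 (Dusp16), and 0.01 and -0.73 (Spry2). With that trend in the expected counts, the chi-square test still called 6 of the 10, beside 36.0% of genes tested, and Dusp4 was lost (adjusted p = 0.342). The part in these differences of ribosomal and small RNA, whose share also differed between the libraries, was not tested.

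**Figure D4:**
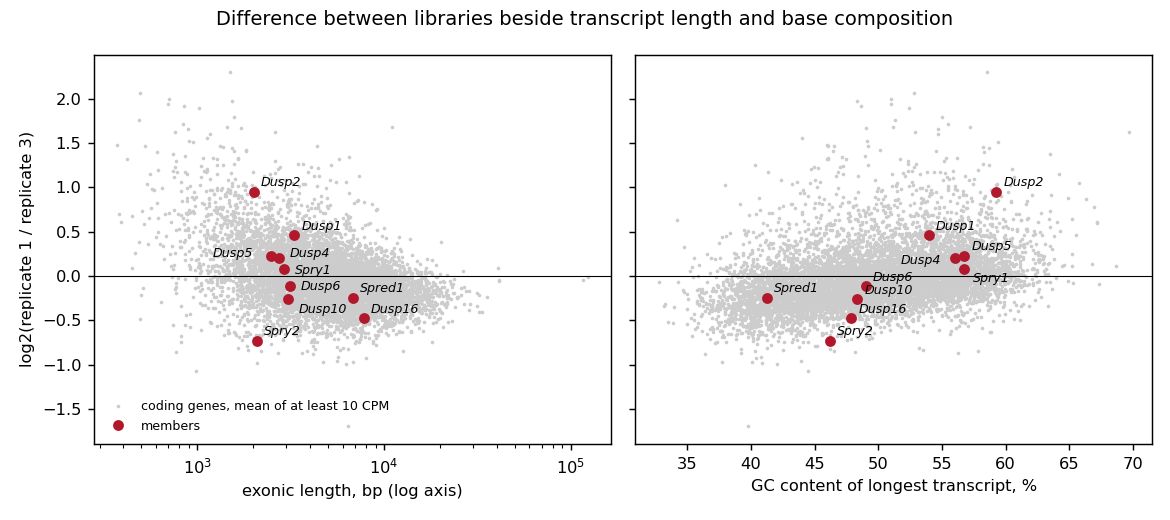
Log2 ratio of replicate 1 to replicate 3 against exonic length in bp (left, log axis) and against GC content of the longest transcript in percent (right), for the 10 genes (red) and 8059 coding genes at 10 CPM or more (grey). Dusp2 is highest of the 10 at 0.95, and the 5 genes above 50% GC lie above 0 while the 5 below 50% lie under it.

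The 3′ untranslated regions (UTRs) of the 10 were searched for the AU-rich pentamer ATTTA, a core of elements that shorten the life of many inducible messengers. All 10 held at least 1, beside 69.2% of 19367 coding genes with a 3′ UTR of at least 100 bases. Dusp2 and Dusp1 had the highest density, with 4 pentamers in 581 bases (6.88 per kb) and 4 in 690 bases (5.80 per kb), beside a median of 1.35 per kb over those genes. Dusp5 and Dusp6 were the lowest with 1 each, at 0.902 and 0.841 per kb. The longer heptamer TATTTAT, which contains the pentamer, was found in 5 of the 10 (Dusp1, Dusp2, Spry1, Spry2 and Spred1), beside 29.5% of those coding genes. A heptamer of 4 of them is shown within 25 bases, 5′ to 3′, with the heptamer in capitals (GENCODE M21 transcripts). Dusp1 and Dusp2 are shown as the densest, and the Sprouty pair because their 25-base windows have 17 bases in a row in common. That run begins at the first base of both windows, so it may be longer in the UTRs. The levels of this pair differed 62.8-fold per kilobase of exon.
Dusp1, 95 to 119 bases after the stop codon: gctggtcctTATTTATttaacaccc
Dusp2, 511 to 535 bases after the stop codon: agcactttaTATTTATatagaacat
Spry1, 860 to 884 bases after the stop codon: tgtaaagaaTATTTATtatgcgaat
Spry2, 685 to 709 bases after the stop codon: tgtaaagaaTATTTATttgaagttt

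The pathway around these genes was measured in lists chosen by function. For scale, 8059 of the 10523 coding genes whose mean reached 1 CPM also reached 10 CPM. Of 10 MAP kinase genes, 7 reached a mean of 10 CPM. Mapk14, which encodes p38 alpha, was at 28.3 ± 1.24 CPM per kb of exon, and Mapk11, which encodes p38 beta, at 15.4 CPM per kb. All 18 genes of the Ras to ERK cascade that were measured reached 10 CPM, led by Rasal3, a Ras GTPase-activating protein of blood cells, at 42.6 ± 2.78 CPM per kb, and the adaptor Grb2 at 33.8 ± 0.832 CPM per kb (Hras was not analysed here). Rasgrp1, the Ras activator downstream of the T cell receptor, was at 26.8 ± 1.46 CPM per kb. Of 10 upstream kinases of JNK and p38, 9 reached 10 CPM, led by Map2k3 at 75.2 ± 2.94 and Map2k7 at 41.0 ± 1.51 CPM per kb.

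Of 16 genes known to respond to ERK, 11 reached 10 CPM. They were led by the growth regulator Myc at 234 ± 8.77, the immediate early gene Ier2 at 81.3 ± 14.4 and the AP-1 subunit Junb at 72.3 ± 8.50 CPM per kb. Among 7 transcription factors that carry the signal, all reached 10 CPM, led by Ets1 at 70.9 ± 1.24 and Srf, the factor that binds CArG boxes, at 42.7 ± 2.35 CPM per kb. Of the 16 atypical dual specificity phosphatases, which lack the kinase-binding domain of the typical ones, 3 reached 10 CPM and 5 had 0 counts. Dusp11, which acts on RNA, led them at 18.7 ± 0.849 CPM per kb, followed by Dusp12 at 5.46 CPM per kb. List medians were 7.64 CPM per kb for the MAP kinases, 18.1 for the Ras to ERK cascade, 11.8 for the upstream kinases of JNK and p38, 11.9 for the responsive genes, 18.5 for the transcription factors and 0.338 for the atypical phosphatases, beside 13.1 for the 10 genes. The chi-square test called 3 of 8 MAP kinases tested, 10 of 18 cascade genes, 4 of 10 upstream kinases, 8 of 15 responsive genes, 4 of 7 transcription factors and 4 of 9 atypical phosphatases, beside 42.8% of all genes tested and 58.5% of those at 10 CPM or more. These shares, 37.5% to 57.1%, lay near that background. Replicate 3 was highest in 10 of the 10 cascade genes called and in 0 of the 8 responsive genes called, beside 2945 of the 6589 genes called in all. The difference between these lists was not tested.

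**Figure D5:**
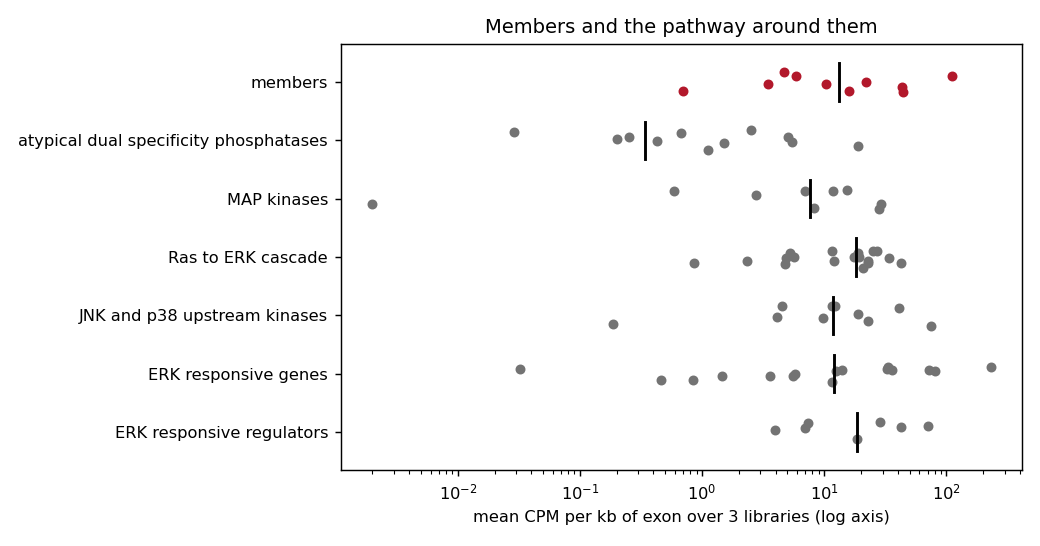
Mean CPM per kb of exon over 3 libraries on a log axis for the 10 genes (red) and 6 lists of the pathway (grey), with a point per gene and a black line at the list median; genes with 0 counts are not drawn but count in the median. The 10 genes have a median of 13.1 CPM per kb, and the atypical phosphatases the lowest at 0.338.

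Counting without regard to strand cannot tell reads of overlapping genes apart, and the sources used here do not state the strand rule. On the opposite strand, Spry1 shares 710 exonic bases with Gm42922, Dusp5 shares 547 with AC137853.2 and Dusp1 shares 11 with Ergic1. The levels of Spry1 and Dusp5 are uncertain to that extent, while Dusp2, Dusp4, Dusp6, Dusp10, Dusp16, Spry2 and Spred1 have no exonic base in common with another annotated gene.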

How the data were processed

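Messenger RNA of 3 libraries of LZ-8-treated splenic T cells was sequenced on an Ion Proton chip, per the labels. Raw counts by gene symbol were deposited by the authors in 1 table. The submitters' processing notes name mm10 as the build, and the sources used here do not give the aligner, counting tool, annotation or strand rule.

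Library sizes were adjusted by TMM with edgeR 4.0.16 in R 4.3.3 and given as CPM, mean and SD over 3 libraries. Exonic lengths came from GENCODE M21 (GRCm38), where 32241 of 44788 symbols matched, 30997 directly and 1244 by older names. GC content is that of the longest transcript. The chi-square test used genes with an expected count of at least 5 in each library, with Benjamini-Hochberg adjustment over all of them. With 1 group, edgeR's test between groups could not be used. Ratios carried a pseudocount of 0.5 counts. The trend with length and GC content was fitted robustly, with splines of 6 degrees of freedom for each, on 10293 genes of at least 5 CPM, and length and GC content were known for 92.7% of the genes tested. Upstream windows came from RefSeq, where 9 of the 10 genes matched.

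All 10 genes of the set are named, with their family and the 2 or 3 most abundant members per kilobase of exon of each list, except where a gene is not reported here. The members and lists were chosen with earlier results of these data known. The classes of phosphatases, the motifs and the AU-rich search were added after the values were seen. Alternatives were DESeq2 1.42.0 size factors, library totals alone, totals without ribosomal and small non-coding rows, other filters and thresholds, the length and GC trend, other length scales, a pseudocount of 0, and leaving out each replicate.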

Additional observations from a re-analysis of the deposited data

How the results depend on the processing

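The summed level of the 10 genes stayed within its SD under every scaling and without each replicate, at 658 to 711 CPM beside 679 ± 77.1 CPM. The count of the 10 called different between libraries was 7, beside 42.8% of all genes tested. It was 5 to 8 under DESeq2 size factors, library totals alone, other filters, a threshold of 0.01 and the length and GC trend. In those settings the share of all genes tested ran from 27.6% (no filter) to 50.4% (expected count of at least 20). Leaving out each replicate gave 2 to 7 of the 10, beside 22.8% to 41.7% of genes tested, with the lowest without replicate 3. Over all genes 6589 were called, and 3555 to 6403 without each replicate (3836 without replicate 1, 3555 without replicate 3), and 5168 to 7312 under the other alternatives. Across the 9 alternatives, 22.8% to 50.4% of genes tested were called. Dusp2 and Dusp5 were called in all 9 alternatives, Dusp1, Dusp10 and Dusp16 in 8 of 9, Spry1 in 6, and Dusp4 and Spred1 in 3. Dusp6 was called in 1, with library totals alone (adjusted p of the chi-square test 0.0286). Spry2 was called in 0 of the 8 in which it was tested. The cause was not tested. At 100 CPM in place of 10 CPM, 3 genes in place of 9 were above the level. Per kilobase of the longest transcript, an alternative chosen after seeing the data, the nuclear inducible share was 83.0 ± 4.79%. No ratio changed sign under any length scale, pseudocount or left-out replicate, but their sizes changed without division by length. No paired analysis was possible because there is only 1 group. Depth limits Spry2, Dusp9 and Spry3, where a few counts decide the value.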

Other observations

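Dusp8, a relative of Dusp10 and Dusp16, held 2 full CRE sequences (TGACGTCA) in the 250 bases before its RefSeq start, from 107 to 100 and from 63 to 56 bases before it. Only 10 of the 32851 windows held 2 or more. Its level was 43, 64 and 61 counts in replicates 1, 2 and 3, or 3.79 ± 0.422 CPM. Per kilobase of exon it was at 0.779 CPM per kb, beside 5.90 ± 0.942 CPM per kb for Dusp1, whose window held 1 such sequence. These genes were chosen after their values were seen, and a sequence match is no measure of binding. Mapk12, also chosen after its values were seen, which encodes p38 gamma, had 38, 16 and 44 counts and was called different between libraries (adjusted p of the chi-square test 0.00255), with its lowest value in replicate 2.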
